A study of Mus musculus with 4 samples.

Results

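The 45 genes described here drive and mark the cell cycle: 22 act in or are made for mitosis, 14 serve DNA replication in S phase, and 9 act in G1 phase and at entry into S phase. They were chosen by symbol from 48526 gene identifiers, and all 45 were found and passed the filter on low counts. RNA was sequenced from orthotopic liver tumours of C57BL/6 mice in 4 libraries. The AKK tumours (AKK 1 and AKK 2) came from mice fed 5000000000 colony-forming units of Akkermansia muciniphila, a gut bacterium that degrades mucin, and the PBS tumours (PBS 1 and PBS 2) from mice given phosphate-buffered saline (PBS). Mice of both groups received the bacteria or PBS for 2 weeks, then ate a methionine- and choline-deficient (MCD) diet for 2 weeks with this feeding continued. A mouse hepatoma line that carries luciferase, RIL-175, was then implanted in the liver. Neither the bacteria nor PBS was given in the first 6 days that followed, and this feeding then went on to the end. Both groups therefore carry the diet and the implanted line, and the labels call the samples of a group biological replicates, with no batch and no statement of which animals they came from. The p-values therefore reflect the spread among these 4 samples.

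In a dividing cell, cyclins D and E with their kinases CDK4, CDK6 and CDK2 release E2F transcription factors from the retinoblastoma protein, and E2F1 and its relatives switch on genes for DNA replication. The MCM2 to MCM7 helicase is loaded on DNA by CDC6 and CDT1 and opens it for copying. In G2 phase a later programme, driven by B-MYB and FOXM1 with the MuvB complex, switches on cyclin B, CDK1, the Aurora and Polo kinases, kinesins and kinetochore proteins. Adult liver cells rarely divide, so in liver tissue these transcripts mark tumour cells and other dividing cells. In bulk RNA fewer dividing cells and less RNA per dividing cell cannot be told apart.

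The replication and mitotic members carry different elements in their promoters, which is why a few of those sequences are shown. RefSeq promoter windows (GRCm38.p6, 250 bases before to 50 after the start site) were matched by symbol for 35 members. Matches were sought on both strands to the cell cycle genes homology region (CHR, spelled TTTGAA or else spelled TTCGAA), through which MuvB complexes bind, to E2F sites (spelled TTCCCGC, or spelled TTGGCGC, or spelled TTGCCGC, or spelled TTCGCGC) and to CCAAT boxes (CCAAT), which bind NF-Y. A CHR was present in 14 of 17 mitotic members (82.4%), 2 of 12 replication members (16.7%) and 0 of 6 G1 members, against 19.2% of all 32851 windows. An E2F site was present in 8 of 12 replication members (66.7%), 3 of 17 mitotic members (17.6%) and 1 of 6 G1 members (16.7%), against 9.57% of all windows. TTGGCGC can overlap a CCAAT box on the other strand. Without such overlapping matches the E2F counts were 8 of 12, 2 of 17 and 1 of 6, against 9.21% of all windows. A CCAAT box was present in 16 of 17 mitotic and 8 of 12 replication members, against 37.4% of all windows. Stretches of 80 bases that end before the start site are printed for the 4 mitotic members with the smallest p that hold a CHR there and the 4 replication members with the smallest p that hold an E2F site there, with matches to any of the 3 motifs, read on either strand, in capitals (TTCAAA is a CHR on the other strand). Mki67 and Cdc20 pair a CCAAT box with a CHR downstream of it, and Ube2c has a pair of CCAAT boxes before its CHR.
Ube2c: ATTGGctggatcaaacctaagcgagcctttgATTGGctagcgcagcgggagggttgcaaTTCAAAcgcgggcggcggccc
Ccnb2: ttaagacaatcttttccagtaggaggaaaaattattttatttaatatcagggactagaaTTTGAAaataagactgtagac
Mki67: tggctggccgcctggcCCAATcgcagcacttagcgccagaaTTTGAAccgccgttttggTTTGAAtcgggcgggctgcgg
Cdc20: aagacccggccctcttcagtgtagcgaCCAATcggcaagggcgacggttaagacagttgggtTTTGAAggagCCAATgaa
Mcm7: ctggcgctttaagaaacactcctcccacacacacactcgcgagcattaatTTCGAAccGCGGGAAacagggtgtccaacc
Cdc6: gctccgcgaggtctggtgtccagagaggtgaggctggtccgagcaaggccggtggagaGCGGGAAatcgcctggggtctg
Mcm5: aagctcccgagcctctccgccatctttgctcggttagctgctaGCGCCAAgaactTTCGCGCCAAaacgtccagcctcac
Rrm1: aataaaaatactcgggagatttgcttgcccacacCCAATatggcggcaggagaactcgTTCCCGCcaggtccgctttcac
The stretches lie at chr2:164769841-164769920 (plus strand), chr9:70421701-70421780 (minus), chr7:135716457-135716536 (minus), chr4:118437344-118437423 (minus), chr5:138172027-138172106 (minus), chr11:98907955-98908034 (plus), chr8:75109302-75109381 (plus) and chr7:102441570-102441649 (plus), each within 250 bases upstream of the annotated start of its gene. The matches describe letters and are not shown to be bound sites in these tumours. Members with a CHR and no E2F site (n = 13) had a median log2 fold change, AKK minus PBS, of 0.16, and those with an E2F site and no CHR (n = 9) had one of 0.13. It was 0.13 for those with both (n = 3) and 0.27 for those with neither (n = 10).

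**Figure D1:**
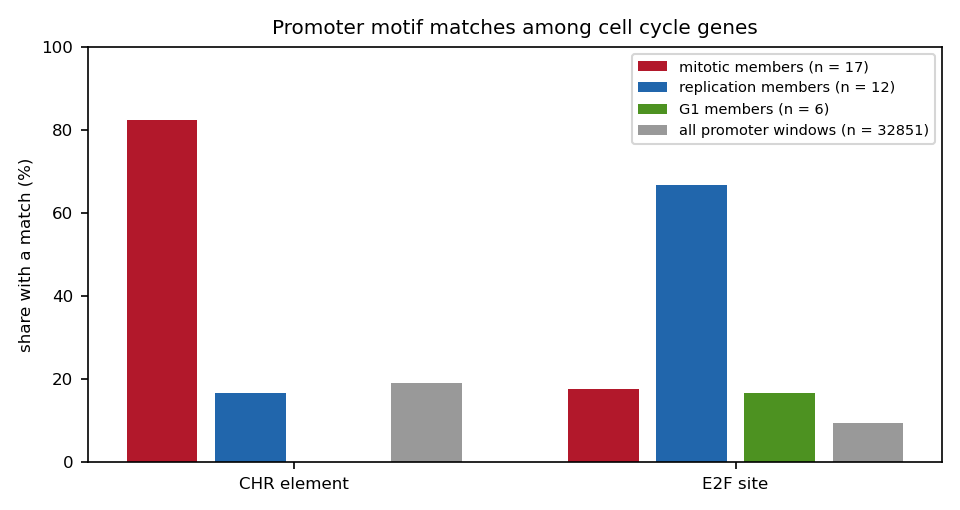
Share of promoters with a match to the CHR element or an E2F site (per cent), by role group and over all promoter windows. The CHR bar is tallest for the mitotic members (82.4%) and the E2F bar for the replication members (66.7%), against 19.2% and 9.57% of all windows.

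Cell cycle transcripts were abundant in every tumour of both groups. The 45 members took 0.631 and 0.614% of the reads on genes in AKK 1 and AKK 2, and 0.587 and 0.602% in PBS 1 and PBS 2. The least covered member had 458, 619, 519 and 418 reads in AKK 1, AKK 2, PBS 1 and PBS 2. At the median member the level was 105 and 96.7 CPM (counts scaled to a common library size by TMM) in AKK 1 and AKK 2, and 91.9 and 89.7 CPM in PBS 1 and PBS 2. The quasi-likelihood test of edgeR, with Benjamini-Hochberg adjustment over all 17479 genes kept, called 0 of the 45 members at an adjusted p under 0.05, where it called 0.00572% of all genes. The smallest adjusted p among members was 0.292. DESeq2 also called 0 members, where it called 4.81% of the genes it tested, and its smallest adjusted p was 0.152 (Ube2c). At an unadjusted edgeR p under 0.05, 5 members were higher in AKK (Ube2c, Plk1, Birc5, Tyms and E2f1) and 1 was lower (Cenpf), against 6.7% of all genes higher and 8.62% lower. The median member had a standard error (SE) of 0.21 on the log2 scale against 0.33 over all genes, and the 95% interval of the median member reached 0.52 to either side of its fold change.

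**Figure D2:**
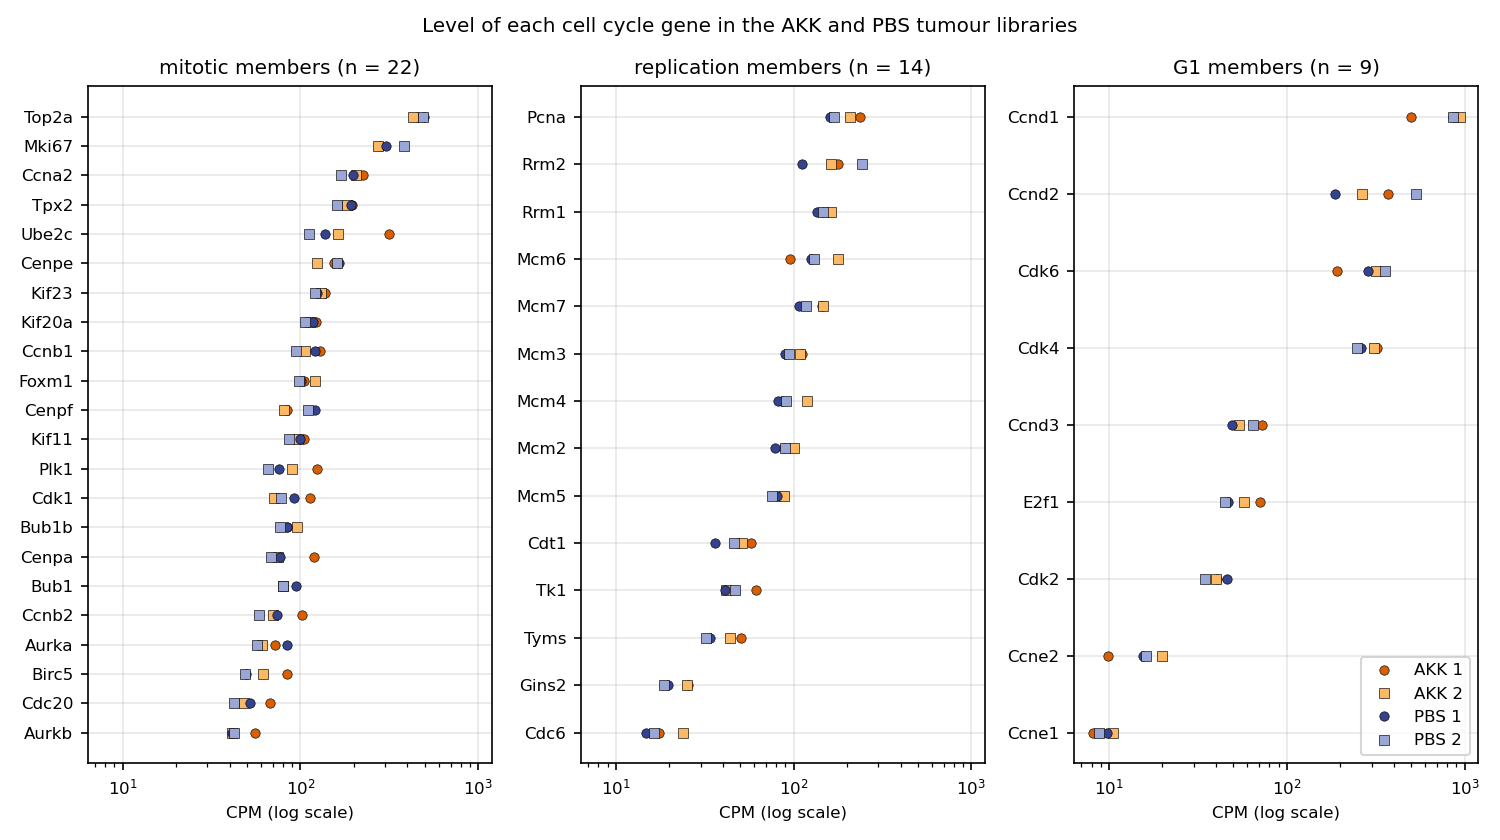
Level of each member in CPM (log scale) in AKK 1, AKK 2, PBS 1 and PBS 2, in 1 panel per role group. Most rows span a narrow range, while Ube2c, Mcm6, Rrm2, Ccne2, Ccnd1 and Ccnd2 spread most between libraries of the same group.

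The replication members lay slightly higher in the AKK tumours. Of 14, 13 had a positive log2 fold change (92.9%, against 51.8% of all genes), and both AKK libraries lay above both PBS libraries in 9 (64.3%, against 26.7% of all genes). None lay below both PBS libraries, which 24.7% of all genes did. Members are read in the same 4 libraries and are not independent of each other. These shares, and those of the other lists, were therefore not tested. The median log2 fold change was 0.26, against 0.02 over all genes kept, and 0 members passed the test. It ranged from 0.20 to 0.33 with a library left out. Pcna, the sliding clamp of DNA polymerase, was the highest of the group per kilobase of exon (mean 80.6 CPM per kb) and read 236 and 208 CPM in AKK 1 and AKK 2, against 161 and 169 CPM in PBS 1 and PBS 2. The groups did not overlap, and the log2 fold change was 0.43 (SE 0.19, edgeR adjusted p = 0.355). Exon length here counts every base in any annotated exon of a gene, over all its transcripts. Values per kilobase therefore depend on the annotation and are not transcript abundances. Tyms (ENSMUSG00000025747.12), the thymidylate synthase that makes dTMP, read 50.9 and 43.7 CPM in AKK 1 and AKK 2, against 33.9 and 32.01 CPM in PBS 1 and PBS 2. Its log2 fold change of 0.52 (SE 0.19, edgeR adjusted p = 0.292, higher in 2 of 2 AKK libraries) was the largest of the group.

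The 6 subunits of the MCM helicase all had positive log2 fold changes. Mcm7 read 144 and 146 CPM in AKK 1 and AKK 2, against 107 and 118 CPM in PBS 1 and PBS 2. Mcm2 read 88.6 and 101 CPM in AKK 1 and AKK 2, against 79.1 and 89.7 CPM in PBS 1 and PBS 2. The Mcm7 libraries separated by group (log2 fold change 0.37, edgeR adjusted p = 0.379), while AKK 1 overlapped the PBS libraries for Mcm2 (0.17, 0.672). Mcm3 and Mcm5 also separated, with log2 fold changes of 0.27 and 0.13, and Mcm4 (0.25) did not. Mcm6 differed within AKK, at 95.7 CPM in AKK 1 and 177 CPM in AKK 2, against 125 and 131 CPM in PBS 1 and PBS 2. Per kilobase of exon, 5 of the 6 subunits averaged between 20.5 and 29.1 CPM per kb over the 4 libraries, and Mcm2 averaged 12.9. Mcm2 has a longer annotated exon length, at 6956 bases against 3589 to 4666 for the others. Its mean CPM of 89.6 lay within their range of 82.0 to 132.

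The helicase loading factors Cdc6 and Cdt1 and the GINS subunit Gins2 showed the same direction. Gins2, a subunit of the GINS complex that completes the active helicase, read 25.5 and 25.3 CPM in AKK 1 and AKK 2, against 19.6 and 18.8 CPM in PBS 1 and PBS 2 (log2 fold change 0.40, SE 0.20, edgeR adjusted p = 0.383). Cdt1 read 57.4 and 51.5 CPM in AKK 1 and AKK 2, against 36.1 and 46.6 CPM in PBS 1 and PBS 2 (0.40, SE 0.21, edgeR adjusted p = 0.405, and 0.22 without PBS 1). Both separated by group, as did Cdc6, with a log2 fold change of 0.40 (SE 0.25). Among the genes of nucleotide supply, Rrm1, the large subunit of ribonucleotide reductase, had a log2 fold change of 0.13, and Tk1, thymidine kinase, had one of 0.23. Rrm2, the small subunit, was the single negative member and the most variable. It read 177 and 163 CPM in AKK 1 and AKK 2, against 111 and 242 CPM in PBS 1 and PBS 2 (log2 fold change -0.05, SE 0.37), so both AKK tumours lay between the PBS tumours.

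The mitotic members were less uniform. Of 22, 16 had a positive (72.7%, against 51.8% of all genes) and 6 a negative log2 fold change, with a median of 0.13. Both AKK libraries lay above both PBS libraries in 7 (31.8%, against 26.7% of all genes) and below them in 4 (against 24.7% of all genes). In 11 they overlapped, so the counts above and below were near the background. Ube2c (ENSMUSG00000001403.13), the ubiquitin-conjugating enzyme of the anaphase-promoting complex, read 316 and 163 CPM in AKK 1 and AKK 2, against 137 and 111 CPM in PBS 1 and PBS 2. Its log2 fold change of 0.95 (SE 0.35, 95% interval 0.10 to 1.80, edgeR adjusted p = 0.297) was the largest of the 45, and the AKK tumours differed more from each other than AKK 2 did from the PBS tumours. Its value was 0.39 without AKK 1, where Cdc6 was higher at 0.61, and 1.35 without AKK 2. Plk1, the Polo kinase of mitotic entry, read 124 and 89.4 CPM in AKK 1 and AKK 2, against 75.5 and 65.8 CPM in PBS 1 and PBS 2. Its groups did not overlap, and AKK 1 was again the highest (log2 fold change 0.59, SE 0.22, edgeR adjusted p = 0.308). Birc5, which encodes survivin of the chromosomal passenger complex, read 84.0 and 62.0 CPM in AKK 1 and AKK 2, against 49.5 and 48.7 CPM in PBS 1 and PBS 2 (0.57, SE 0.21, edgeR adjusted p = 0.301). Cenpa, the histone H3 variant of centromeres, read 119 and 74.7 CPM in AKK 1 and AKK 2, against 76.8 and 67.9 CPM in PBS 1 and PBS 2 (0.42, SE 0.26, edgeR adjusted p = 0.471). AKK 2 lay between the PBS libraries for Cenpa, whose log2 fold change was 0.049 without AKK 1 and 0.71 without AKK 2. Plk1 had 0.34 without AKK 1 and 0.80 without AKK 2, and Birc5 had 0.34 and 0.77 without those libraries.

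Members with negative values included Mki67 and Top2a, both in common use as markers of proliferation. Mki67, which encodes Ki-67, read 279 and 274 CPM in AKK 1 and AKK 2, against 302 and 382 CPM in PBS 1 and PBS 2 (log2 fold change -0.31, SE 0.22, edgeR adjusted p = 0.524). Both AKK tumours lay below both PBS tumours, by less than the PBS tumours differed from each other, and the value was -0.47 without PBS 1 and -0.16 without PBS 2. Top2a, the topoisomerase that untangles sister chromatids, read 455 and 431 CPM in AKK 1 and AKK 2, against 493 and 488 CPM in PBS 1 and PBS 2 (-0.15, SE 0.21, edgeR adjusted p = 0.757). Cenpf (ENSMUSG00000026605.14), a large kinetochore protein, read 84.0 and 80.5 CPM in AKK 1 and AKK 2, against 120 and 110 CPM in PBS 1 and PBS 2. Its log2 fold change of -0.49 (SE 0.17, 95% interval -0.92 to -0.06, edgeR adjusted p = 0.292) was the lowest of the 45. Cenpe, the kinesin that carries chromosomes to the spindle equator, was the other mitotic member below both PBS libraries (-0.23, SE 0.20, and -0.39 without AKK 1 and -0.083 without AKK 2).

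Cyclins B and most of the mitotic kinases did not separate by group. Ccnb1, cyclin B1, read 129 and 106 CPM in AKK 1 and AKK 2, against 121 and 94.0 CPM in PBS 1 and PBS 2 (log2 fold change 0.13, SE 0.22, edgeR adjusted p = 0.796). Each AKK tumour was close to a PBS tumour. Its partner kinase Cdk1 (0.13), cyclin B2 (Ccnb2, 0.39), the Aurora kinases Aurka (-0.09) and Aurkb (0.21), the spindle checkpoint kinase Bub1 (-0.13) and the anaphase activator Cdc20 (0.30) overlapped as well. Ccnb2 had a log2 fold change of 0.092 without AKK 1 and 0.64 without AKK 2, and Cdc20 had 0.036 and 0.52 without those libraries. The checkpoint gene Bub1b (0.16), cyclin A2 (Ccna2, 0.23), the cytokinesis kinesin Kif23 (0.13) and the transcription factor Foxm1 (0.18) lay above both PBS libraries in both AKK libraries, with edgeR adjusted p of 0.588 to 0.747. The spindle kinesin Kif11 (0.12), the cytokinesis kinesin Kif20a (0.07) and the spindle assembly factor Tpx2 (0.09) had the smallest positive values.

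**Figure D3:**
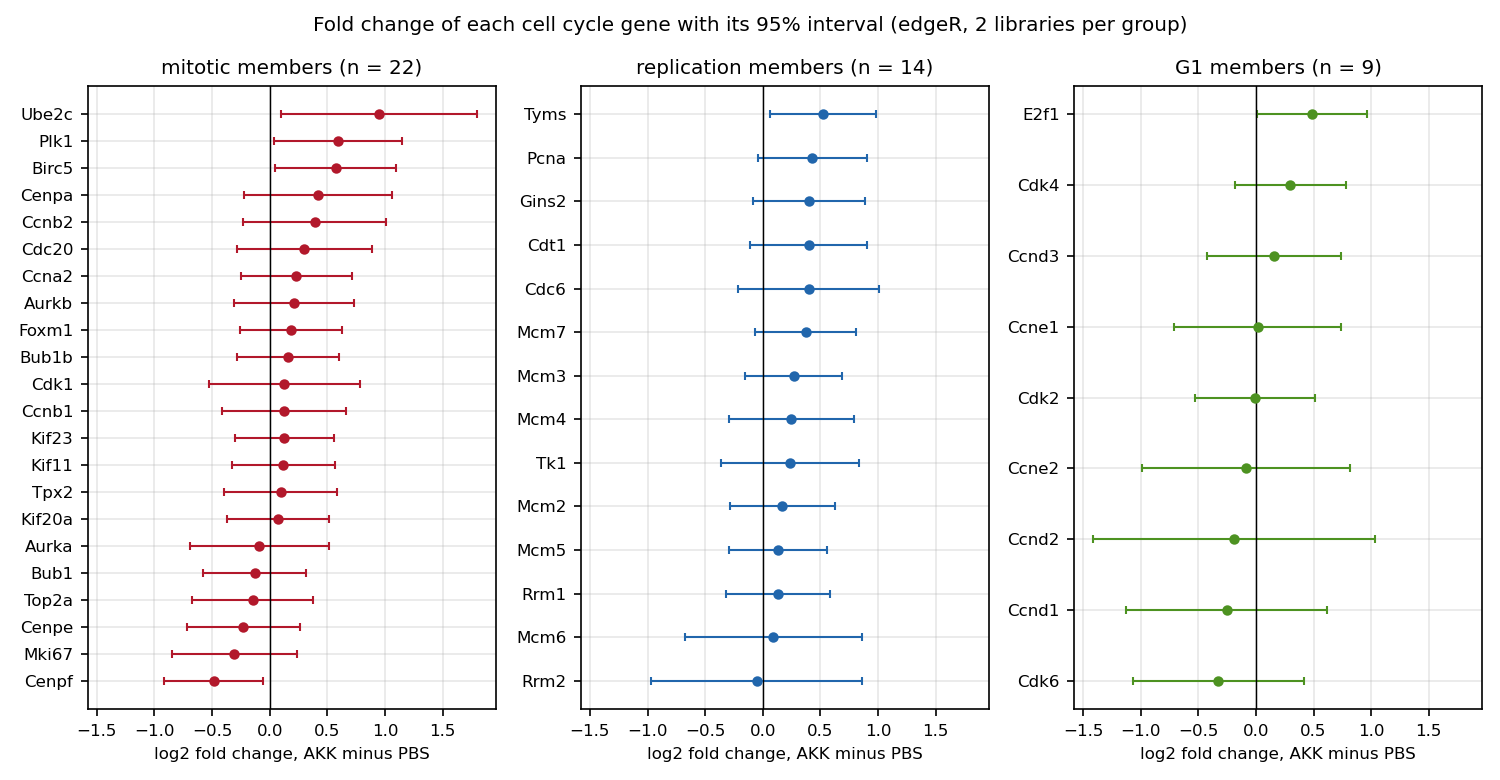
Log2 fold change, AKK minus PBS, of each member (points) with its 95% interval (bars) in edgeR, in 1 panel per role group. Points of the replication members lie at or right of 0 apart from Rrm2 (-0.05), mitotic points run from -0.49 (Cenpf) to 0.95 (Ube2c), and no point passes the adjusted threshold.

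The G1 members showed no common direction, with 4 positive and 5 negative log2 fold changes around a median of -0.01. Both AKK libraries lay above both PBS libraries in 2 of 9, E2f1 and Cdk4 (22.2%, against 26.7% of all genes), and below them in 0 (against 24.7%). E2f1, the transcription factor of S phase genes, read 71.1 and 57.4 CPM in AKK 1 and AKK 2, against 46.9 and 44.8 CPM in PBS 1 and PBS 2 (log2 fold change 0.49, SE 0.19, edgeR adjusted p = 0.321). Cdk4 read 321 and 308 CPM in AKK 1 and AKK 2, against 262 and 250 CPM in PBS 1 and PBS 2 (0.30, SE 0.20, edgeR adjusted p = 0.488). Both genes separated by group by a small margin.

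D-type cyclins, which link growth signals to the cycle, varied between tumours of the same group. Ccnd1, cyclin D1, read 498 and 942 CPM in AKK 1 and AKK 2, against 860 and 856 CPM in PBS 1 and PBS 2 (log2 fold change -0.25, SE 0.35, edgeR adjusted p = 0.748). AKK 1 alone was low. Ccnd2 read 369 and 265 CPM in AKK 1 and AKK 2, against 187 and 537 CPM in PBS 1 and PBS 2, so the AKK tumours lay between the PBS tumours. Ccnd3 read 72.6 and 54.0 CPM in AKK 1 and AKK 2, against 49.6 and 64.3 CPM in PBS 1 and PBS 2. Cdk6 read 193 and 320 CPM in AKK 1 and AKK 2, against 288 and 356 CPM in PBS 1 and PBS 2 (log2 fold change -0.33, SE 0.30, edgeR adjusted p = 0.616). Like Ccnd1 and Mcm6, it was lowest in AKK 1, and its log2 fold change was -0.0035 without that library and -0.74 without AKK 2. Per kilobase of exon, Ccnd1 was the highest cyclin D in every library, at 106 and 200 CPM per kb in AKK 1 and AKK 2 and 183 and 182 in PBS 1 and PBS 2. Ccnd2 averaged 36.1 and Ccnd3 6.85 CPM per kb over the 4 libraries. Their annotated exon lengths are 9409 and 8775 bases, against 4709 for Ccnd1, and ranks per kilobase depend on these lengths. Cdk4 averaged 87.8 CPM per kb, against 20.7 for Cdk6 and 6.51 for Cdk2. The E cyclins averaged 3.49 (Ccne1) and 4.41 (Ccne2) CPM per kb. Ccne1 was at 8.10 and 10.6 CPM in AKK 1 and AKK 2, against 9.72 and 8.78 CPM in PBS 1 and PBS 2, and Ccne2 was lowest in AKK 1, at 9.92 CPM.

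Replication and mitotic members ran differently across the 4 tumours. For each gene the log2 CPM (prior count 2) was centred on its mean over the libraries, and the median was taken over each role group. The replication median was 0.12 and 0.14 in AKK 1 and AKK 2, and -0.19 and -0.07 in PBS 1 and PBS 2, so the groups did not overlap. The mitotic median was 0.11 and -0.07 in AKK 1 and AKK 2, and -0.0045 and -0.17 in PBS 1 and PBS 2, so the groups overlapped. PBS 1 held the lowest value of 10 of 14 replication members, while PBS 2 held the lowest value of 15 of 22 mitotic members. AKK 1 held the highest value of 14 mitotic and 6 replication members, and AKK 2 that of 2 mitotic and 7 replication members. The mitotic median minus the replication median was -0.0092 and -0.21 in AKK 1 and AKK 2, and 0.19 and -0.10 in PBS 1 and PBS 2. The mean difference between the groups was -0.16, AKK minus PBS, and the AKK and PBS values overlapped. With 2 libraries per group an exact two-sided permutation test cannot go below 0.333. Without PBS 1 the difference was -0.01 and without AKK 2 it was -0.02, while it was -0.32 without PBS 2 and -0.28 without AKK 1.

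**Figure D4:**
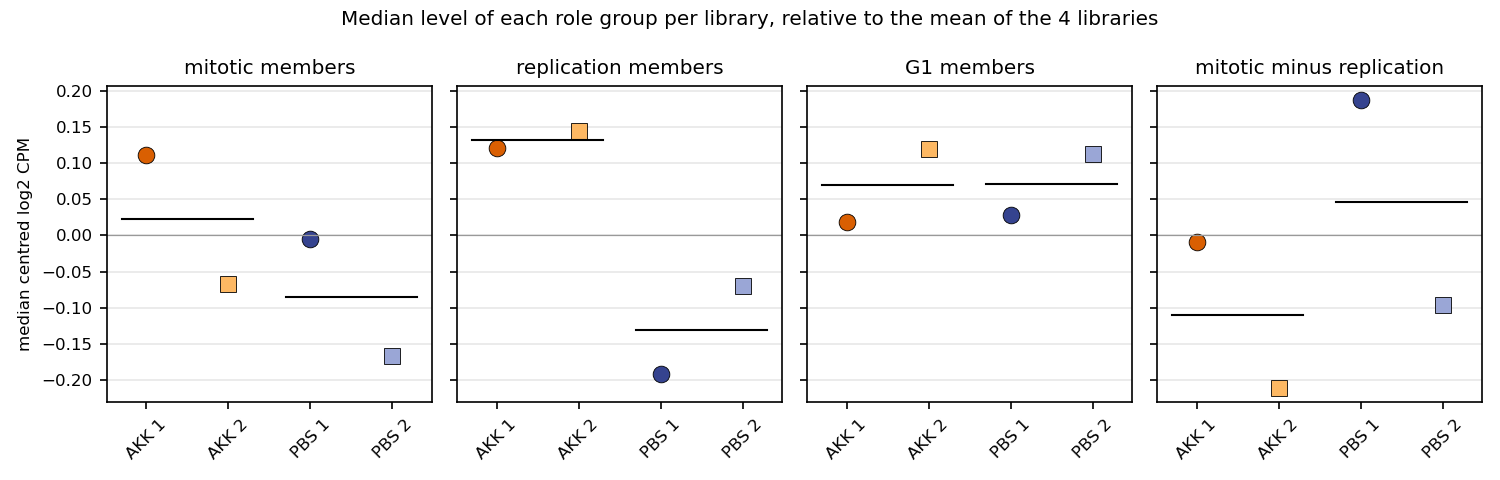
Median centred log2 CPM of the mitotic, replication and G1 members, and the mitotic minus the replication median, in each library (lines are group means of 2 libraries). The AKK points lie above the PBS points for the replication members, and overlap them in the other panels.

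Other genes of the same pathways showed similar spreads, and edgeR called 0 in each of 5 further lists, where it called 0.00572% of all genes. Of 30 other replication genes, 25 were positive (83.3%, against 51.8% of all genes), 21 lay above both PBS libraries (70%, against 26.7%) and 2 below both (against 24.7%), with a median of 0.24 on the log2 scale. Gins1, another GINS subunit, read 26.2 and 35.1 CPM in AKK 1 and AKK 2, against 12.7 and 10.8 CPM in PBS 1 and PBS 2 (log2 fold change 1.38, SE 0.25, edgeR adjusted p = 0.182). DESeq2 called it (adjusted p = 0.0011), the single call among these lists, where it called 4.81% of the genes it tested. The DNA polymerase delta gene Pold1 (0.63), the helicase activator Mcm10 (0.50) and the clamp loader gene Rfc3 (0.53) had the next smallest p, with edgeR adjusted p of 0.246 to 0.299. Of 40 other mitotic genes, 32 were positive (80%, against 51.8% of all genes), 18 lay above both PBS libraries (45%, against 26.7%) and 4 below both (against 24.7%), and the median was 0.15. The members with the smallest p were the CDK subunit Cks1b (0.57), the nuclear lamin Lmnb1 (0.49), the checkpoint gene Mad2l1 (0.44) and Cks2 (0.68), with edgeR adjusted p of 0.285 to 0.334. Of 10 CDK inhibitors and pocket proteins, 6 were positive (median 0.02). Cdkn2a, which encodes p16 and p19ARF, read 151 and 108 CPM in AKK 1 and AKK 2, against 92.7 and 99.97 CPM in PBS 1 and PBS 2 (edgeR adjusted p = 0.407). The retinoblastoma relatives Rbl2 (-0.39) and Rb1 (-0.29) and the CDK inhibitor Cdkn1b (0.20) followed.

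Both remaining lists had negative medians. Of 14 checkpoint and DNA damage genes, 10 were negative (median log2 fold change -0.17), and in 7 both AKK libraries were the lowest (against 24.7% of all genes), while in 2 they were the highest (14.3%, against 26.7%). Brca1, a homologous recombination gene, read 24.1 and 23.2 CPM in AKK 1 and AKK 2, against 37.4 and 36.9 CPM in PBS 1 and PBS 2 (-0.65, SE 0.18, edgeR adjusted p = 0.240). The damage kinases Atm (-1.25) and Atr (-0.53) and the recombination gene Brca2 (-0.66) had edgeR adjusted p of 0.278 to 0.308. Of 15 other E2F, DREAM and MuvB factors, 10 were negative, 5 lay below both PBS libraries (against 24.7% of all genes), 3 lay above both (20%, against 26.7%) and the median was -0.10. The MuvB subunit Lin54, which contacts the CHR, read 20.5 and 26.9 CPM in AKK 1 and AKK 2, against 37.2 and 39.9 CPM in PBS 1 and PBS 2 (-0.70, SE 0.22, edgeR adjusted p = 0.253). Tfdp2, a partner of E2F proteins (-0.88), Lin37 of MuvB (0.65) and the repressor E2f6 (-0.49) came next by p.

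Over all genes, log2 fold changes fell with exon length, and the libraries also differed in make-up. Exon lengths were taken from GENCODE M21 as the union of exons over all transcripts of a gene. That release need not be the one of the count tables. With all genes split by exon length into 4 classes of equal size, the median log2 fold change was 0.33 in the shortest class (up to 2081 bases), 0.13 and -0.02 in the next classes and -0.28 in the longest (from 6089 bases). Without AKK 1 these medians were 0.11, 0.08, 0.01 and -0.16, and without AKK 2 they were 0.48, 0.16, -0.09 and -0.44. Among the 45 members, Spearman's rho between log2 fold change and exon length was -0.51, and it was -0.70 among the 22 mitotic, -0.13 among the 14 replication and -0.65 among the 9 G1 members. Over 17206 genes with reads in every library it was -0.36. For AKK 1 over AKK 2, rho with length was -0.35 over these genes and -0.53 among the mitotic members. For PBS 1 over PBS 2 it was 0.11 and -0.57. These are descriptions across genes that share the same 4 libraries. Cenpf (15433 bases), Mki67 (10061), Top2a (9013) and Cenpe (8620) are the longest mitotic members, and Ccnb2 (1531), Cdc20 (1868), Plk1 (2199), Aurka (2531) and Ube2c (2600) are the shortest, of which Aurka alone had a negative value. An offset for exon length, chosen after seeing the data, gave log2 fold changes of 0.02 for Mki67, 0.14 for Top2a, 0.06 for Cenpe -0.02 for Cenpf, -0.26 for Aurka and 0.77 for Ube2c. With it the medians were 0.13 for the mitotic, 0.29 for the replication and 0.12 for the G1 members. Under this offset 13 of 14 replication members stayed positive, 19 of 22 mitotic members were positive against 16 without it, and 0 members were called. Among genes named from the further lists, Gins1 (1516 bases), Cks1b (1126) and Cks2 (692) fall in the shortest class and had positive values. Mad2l1 (8390) falls in the longest and was also positive. The part of exon length in the values of those lists was not tested.

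**Figure D5:**
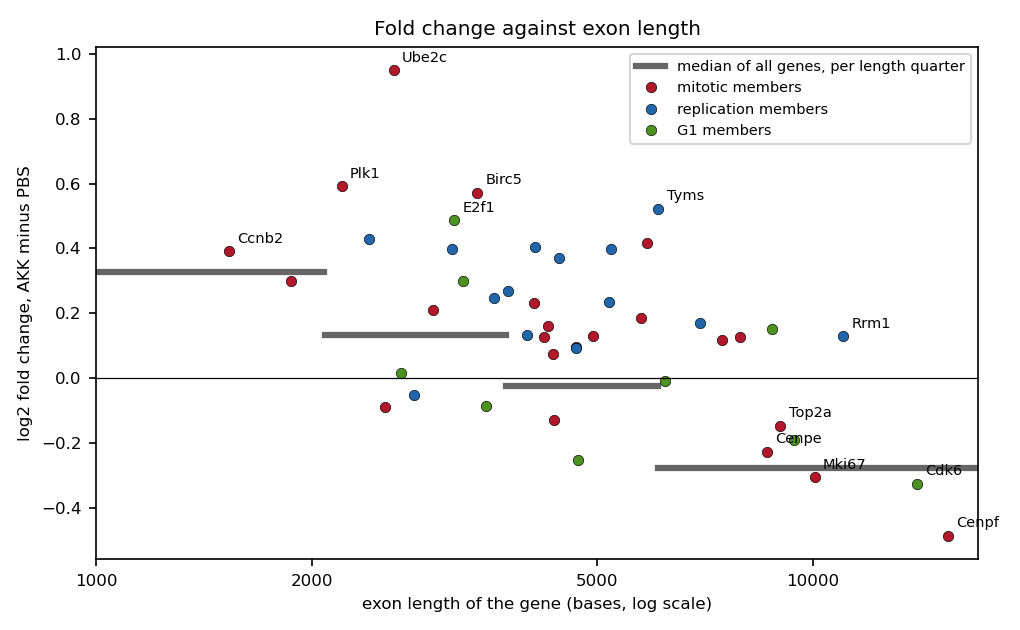
Log2 fold change, AKK minus PBS, of each member against its exon length in bases (log scale), with the median of all genes in each length class as grey lines (the outer lines are drawn only within the plotted range). The grey lines step down from 0.33 to -0.28, the long mitotic genes Cenpf, Mki67, Top2a and Cenpe lie below 0, and Ube2c lies highest at 0.95.

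Mitochondrial transcripts took 3.92 and 2.33% of the reads in AKK 1 and AKK 2, against 1.78 and 1.64% in PBS 1 and PBS 2. Genes of ribosomal proteins took 6.88 and 4.36% in AKK 1 and AKK 2, against 3.62 and 4.16% in PBS 1 and PBS 2, so AKK 1 was the highest for both. The libraries held 55360237 and 59027227 reads on genes in AKK 1 and AKK 2, and 52500328 and 48912489 in PBS 1 and PBS 2. Hepatoma and epithelial keratins were abundant throughout, with Krt8 at 2510 and 2608 CPM in AKK 1 and AKK 2 and 1442 and 2631 CPM in PBS 1 and PBS 2. The summed level of the 5 markers of that list was 5865 and 5458 CPM in AKK 1 and AKK 2, against 3043 and 6223 CPM in PBS 1 and PBS 2. Keratins made up nearly all of these sums. Epcam had 127 and 197 reads in AKK 1 and AKK 2, against 7 and 1 in PBS 1 and PBS 2. Its log2 fold change was 5.13 (edgeR adjusted p = 0.182, DESeq2 adjusted p = 1.46e-07), and the other 4 markers overlapped. Of 8 hepatocyte markers, 6 lay above both PBS libraries (75%, against 26.7% of all genes). Apob and Hnf4a overlapped, with log2 fold changes of -0.38 and -0.54. The 8 summed to 594 and 685 CPM in AKK 1 and AKK 2, against 316 and 754 CPM in PBS 1 and PBS 2. Apob (241 and 583 CPM) and Hnf4a (74.8 and 168 CPM) made up nearly all of the sums in PBS 1 and PBS 2. The sums therefore hide the other 6 markers, whose log2 fold changes ran from 5.01 (Cps1) to 8.70 (Fgb). Albumin (Alb) was at 156 and 25.3 CPM in AKK 1 and AKK 2, against 0.2997 and 0.988 CPM in PBS 1 and PBS 2. All 6 macrophage markers and all 5 endothelial markers were detected, with sums of 177 to 200 and 22.9 to 26.0 CPM in AKK, against 257 to 320 and 60.1 to 83.4 CPM in PBS. The 8 T cell markers summed to 13.95 and 7.17 CPM in AKK 1 and AKK 2, against 4.12 and 7.04 CPM in PBS 1 and PBS 2. The 6 B and plasma cell markers summed to 55.3 and 23.9 CPM in AKK, against 4.91 and 4.79 CPM in PBS, with Ms4a1 at 0 reads in AKK 2, PBS 1 and PBS 2. Fibroblast markers (6 of 6 detected) summed to 956 and 1443 CPM in AKK and 2091 and 732 CPM in PBS, mostly from collagens. Postn (11.1 and 36.8 CPM in AKK, 255 and 111 in PBS) and Pdgfrb lay below both PBS libraries, and the other 4 overlapped. Neutrophil markers summed to 10.7 and 5.68 CPM in AKK and 5.55 and 3.55 CPM in PBS. Among them Retnlg had only 3 and 1 reads in AKK, against 23 and 8 in PBS, while the other 3 had positive log2 fold changes. The 5 skeletal muscle markers summed to 2.14 and 2.43 CPM in AKK 1 and AKK 2, against 199.5 and 5.70 CPM in PBS 1 and PBS 2, with Myh4 at 0 reads in both AKK libraries and Ckm at 0 in AKK 2. The leukocyte gene Ptprc read 15.7 and 16.6 CPM in AKK, against 25.4 and 21.7 CPM in PBS. The part of these cell types and of the mitochondrial and ribosomal protein shares in the values of the cell cycle genes was not tested.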

How the data were processed

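Bulk RNA sequencing of 4 liver tumour libraries (pairs of 151 bp reads, per the labels) was analysed from the authors' deposited tables of raw read counts per gene, which follow the layout of STAR's gene counting. STAR 2.5.2 and RSEM 1.2.31 are listed in the submitters' processing notes. Neither a genome build nor an annotation release is named in those sources. The own-strand column was used (95.4 to 96.2% of strand-assigned reads). The 4 summary rows, which name no gene, held 27.6 to 31.4% of reads and were left out. In this layout only uniquely mapped reads are counted, so Ccnb1, Ccnb2, Pcna, Tyms and Ccnd3, which have annotated pseudogene copies, may be undercounted. Symbols were matched for 48058 of 48526 identifiers.

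AKK was compared with PBS by edgeR 4.0.16 in R 4.3.3 (quasi-likelihood test in its legacy form, two-sided, TMM scaling, filterByExpr, group as the only term, Benjamini-Hochberg threshold 0.05 over 17479 genes). Fold changes use a prior count of 0.125, and SE and 95% intervals come from the F statistic. DESeq2 1.42.0 was the other tool. The fits were tested on simulated counts. The members and lists were chosen with earlier results of these data known. Alternatives were other scalings, no filter, the unstranded column, a replicate block, the edgeR 4 form, and each library omitted in turn (the lone library of its group is then assumed to vary like the others). The text gives in every sample 7 marker genes and, per role group, the 5 members with the smallest p and the highest in CPM. Of each further list it names up to 4 with the smallest p. Other values were chosen after being seen. Motif matches were counted in RefSeq promoter windows of GRCm38.p6.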

Additional observations from a re-analysis of the deposited data

How the results depend on the processing

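In each alternative run, 0 of the 45 members passed the adjusted threshold. The count over all genes was 1 in edgeR, 908 in DESeq2, 631 without a filter on low counts, 209 with the replicate number as a block, 3 with upper-quartile scaling, 4 with the edgeR 4 form, and 0 to 324 with a library left out. The cause of these differences was not tested. Same-numbered libraries did not deviate together across genes (r = -0.02). With 4 libraries this cannot decide whether the replicate numbers pair samples, and the labels name no pairing. With the block the medians were 0.13, 0.25 and 0.0034 for the mitotic, replication and G1 members. With a library left out the replication median ranged from 0.20 to 0.33, the G1 median from -0.076 to 0.14, the mitotic median from 0.03 to 0.22 and the mitotic minus replication difference from -0.32 to -0.01. An offset for exon length, chosen after seeing the data, gave a G1 median of 0.12.

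Log2 fold changes turned in direction for 21 members in at least 1 alternative, for 12 of them only when a library was left out. With the length offset these were Mki67 (0.023), Top2a (0.14), Cenpe (0.057), Ccne1 (-0.13), Ccnd2 (0.13), Cdk2 (0.12) and Cdk6 (0.073). With upper-quartile scaling they were Rrm2 (0.013) and Cdk2 (0.046), with the block Rrm2 (0.054) and Cdk2 (0.0063), and with the unstranded column Kif20a (-0.25) and Cdk2 (0.0031). With a library left out the ranges were -0.075 to 0.32 for Ccnb1, -0.24 to 0.42 for Cdk1, -0.37 to 0.21 for Aurka, -0.0095 to 0.40 for Aurkb, -0.011 to 0.22 for Kif11, -0.026 to 0.14 for Kif20a, -0.064 to 0.23 for Tpx2, -0.012 to 0.47 for Mcm4, -0.42 to 0.47 for Mcm6, -0.51 to 0.59 for Rrm2, -0.069 to 0.48 for Tk1, -0.20 to 0.20 for Ccne1, -0.69 to 0.33 for Ccne2, -0.79 to 0.14 for Ccnd1, -0.76 to 0.73 for Ccnd2, -0.071 to 0.34 for Ccnd3 and -0.23 to 0.21 for Cdk2. The mitotic minus replication level was not recomputed for the block and the edgeR 4 form, which leave the levels as they are. Each member had at least 418 reads in every library, and precision rests on 4 libraries in all.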

Other observations

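The CDK inhibitor gene Cdkn1a, a p53 target, differed within both groups, at 95.3 and 58.7 CPM in AKK 1 and AKK 2, and 35.6 and 103 CPM in PBS 1 and PBS 2. As for Ccnd2 and Rrm2, the gap from PBS 1 to PBS 2 exceeded the gap between group means.

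Kif20a held fewer reads without regard to strand than on its own strand, with 2805 and 3629 unstranded against 6897 and 6606 own-strand reads in AKK 1 and AKK 2, and 3670 and 3090 against 6255 and 5056 in PBS 1 and PBS 2. Its opposite-strand column held 1177 and 724 reads in AKK 1 and AKK 2, and 623 and 593 in PBS 1 and PBS 2. Other members also held fewer unstranded reads, among them Ccna2, Ccnd2, Ccnd3 and Ccnd1. Ccnd1 held 11533 and 28855 unstranded against 28176 and 55021 own-strand reads in AKK 1 and AKK 2. Gins2 held more reads on the opposite strand than on its own, with 3113 against 1441 in AKK 1 and 2372 against 1046 in PBS 1. So did Ccne2 in AKK 1, with 757 against 561.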
